A study of Homo sapiens with 9 samples.

Results

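The mRNAs described here carry gene symbols made of ZNF, a number and at most 1 letter, the names given to a large family of human zinc finger genes. The members were chosen by their measured counts: of 42785 gene symbols, 524 have this form, and the 176 with at least 10 raw counts in at least 6 of the 9 libraries were kept. The rule looked at detection over all libraries and not at any contrast, but it used the same counts that are compared below, and for a few members it fixed the direction, which is stated where they are described. Of all symbols, 5079 met the same threshold.

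The libraries came from SH-SY5Y, a human neuroblastoma line that is used as a model of neuron-like cells. RNA was isolated from lysate incubated with beads carrying a mouse antibody to DCC, the receptor of the guidance cue Netrin-1 (DCC-IP), from lysate incubated with beads carrying a rabbit antibody to Nrp1, the receptor of Sema3A (Nrp1-IP), and from lysate without a pulldown (Input), with 3 libraries each. The study asked which mRNAs travel with each receptor. All 9 libraries are from the same cell line, with no treatment named, the precipitated RNA was amplified by a PCR method designed for single cells, and no library of a pulldown with a control antibody was analysed here, so that a background of RNA held by beads or antibody has no value beside the results. The study's methods describe its experiments in general as independent biological replicates, while the labels do not say what separates the 3 libraries of a group, and p-values measure the spread between these libraries.

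C2H2 zinc finger proteins bind DNA through a row of small zinc-holding loops, each of which reads a few bases. The largest class in humans also carries a KRAB domain, which recruits the corepressor TRIM28 and the histone methyltransferase SETDB1 and thereby silences the bound site, often a retroelement. Many of these genes arose by tandem duplication and lie in clusters, most of them on chromosome 19. Their mRNAs are usually scarce and encode nuclear proteins, and most of the proteins have no known role at a membrane receptor.

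Each library held between 8838296 and 11055895 counts on genes, so that 3 counts, the floor used here, were worth 0.271 to 0.339 CPM, the unit of counts scaled by library size. MAP1B, which encodes a microtubule-associated protein, took 47.4% ± 6.20 (SD, n = 3) of the DCC-IP counts, against 2.1% ± 0.460 in Nrp1-IP and 2.1% ± 0.206 in Input, and levels below are therefore given with and without MAP1B in the library size. Of 11 neuroblastoma markers, 4 had at least 10 counts in all Input libraries, 3 in all of DCC-IP and 3 in all of Nrp1-IP, and their summed level, to which ISL1 contributed most, ranged over 221 to 393 CPM in Input, 1741 to 3214 in DCC-IP and 1115 to 1458 in Nrp1-IP. Of 8 markers of other cells, 1 had at least 10 counts in all Input libraries and 0 in all of either pulldown. COL1A1 had 29, 40 and 34 counts in Input, 8, 5 and 7 in DCC-IP and 2, 1 and 7 in Nrp1-IP. EPCAM had 12 counts in Nrp1-IP library 2 and 0 elsewhere. PTPRC, CD3E, HBB, ALB, KRT5 and GFAP were at 0 in all 9 libraries. The summed level of the 8 was 2.72 to 3.98 CPM in Input, 0.452 to 0.727 in DCC-IP and 0.206 to 1.29 in Nrp1-IP. In these bulk libraries, fewer cells of a type and less RNA per cell cannot be told apart.

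Detection of the ZNF mRNAs was most even in Nrp1-IP. In the 3 Nrp1-IP libraries, 169, 170 and 174 of the 176 members had at least 10 counts, against 137, 162 and 158 in the Input libraries and 124, 164 and 171 in the DCC-IP libraries. DCC-IP library 1 and Input library 1 thus held the fewest members, and these libraries also had the fewest genes of any kind with a count in their groups (6652 and 8169). The number of members with at least 10 counts in all 3 libraries was 164 in Nrp1-IP, 126 in Input and 120 in DCC-IP, and 91 members reached it in all 9. There were 32 members that reached 10 counts in every Nrp1-IP and Input library but missed it in some DCC-IP library, 23 that reached it in all 6 pulldown libraries but not in all of Input, and 1 that missed it in Nrp1-IP alone.

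At the edge of the rule stood 25 members with 10 counts in just 6 libraries, whose counts summed over the 9 libraries ranged from 117 to 875 with a median of 271. Just outside were 28 symbols with 5 such libraries and sums from 73 to 434 with a median of 165, while 175 of the 524 symbols reached 10 counts in none. Among those just inside, ZNF142, ZNF69, ZNF107 and ZNF567 entered with all 6 pulldown libraries and no Input library, and ZNF132 and ZNF713 entered with all Nrp1-IP and Input libraries and no DCC-IP library. The direction of these 6 mRNAs was a condition of their being members and is given below as a description. Just outside, ZNF160 had counts of 0, 0 and 6 in Input, 190, 48 and 69 in DCC-IP and 2, 10 and 22 in Nrp1-IP.

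The share of gene counts that fell on the 176 ZNF mRNAs depended on whether MAP1B was counted. With MAP1B in the total, the share was 1.66%, 1.65% and 1.36% in Input, 1.35%, 1.26% and 1.34% in DCC-IP and 2.1%, 1.85% and 1.91% in Nrp1-IP. On this scale every DCC-IP library lay below every Input library and every Nrp1-IP library above. Without MAP1B, the DCC-IP shares became 2.68%, 2.64% and 2.25%, above those of Nrp1-IP (2.15%, 1.90% and 1.94%) and of Input (1.69%, 1.69% and 1.39%). The order of DCC-IP against both other groups was thus turned by a single non-member mRNA, and the order of Nrp1-IP over Input was not.

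**Figure D1:**
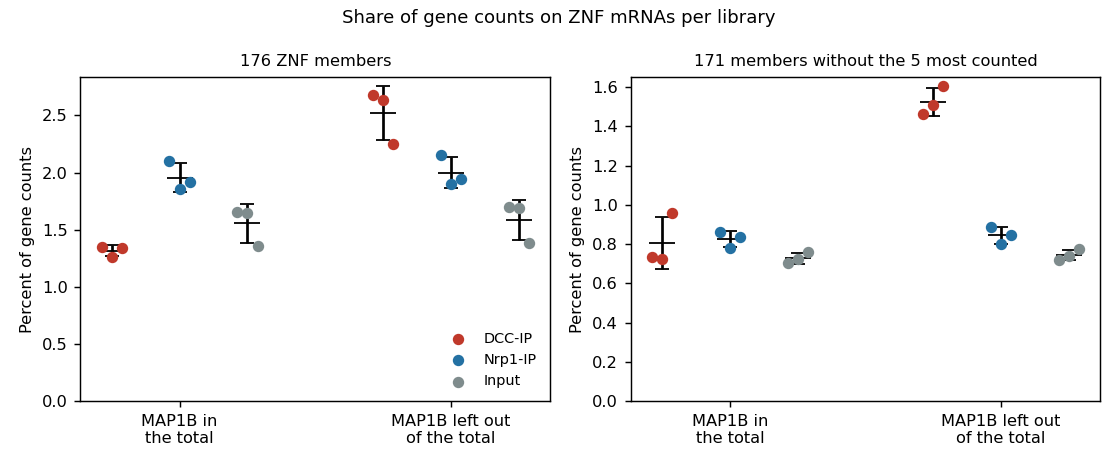
Percent of gene counts on ZNF mRNAs in each library (points), with the mean and SD of the 3 libraries of a group, with and without MAP1B in the total, for all 176 members (left) and for the 171 that remain without the 5 most counted (right). With MAP1B counted the DCC-IP points on the left lie lowest, at 1.26% to 1.35%, and without it they lie highest, at 2.25% to 2.68%.

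A few mRNAs carried much of this share. ZNF562 (223574 counts over the 9 libraries), ZNF286A (190612), ZNF121 (152412), ZNF516 (108426), a transcription factor of brown fat genes, and ZNF284 (86162) together held 51.1% of all member counts; counts are not corrected for transcript length, so this does not rank their levels. Their part of the member counts was 57.7% ± 1.24 (SD, n = 3) in Nrp1-IP, 52.6% ± 7.33 in Input and 39.0% ± 8.98 in DCC-IP. Without these 5, the share of the other 171 members with MAP1B in the total was 0.705%, 0.722% and 0.760% in Input, 0.737%, 0.722% and 0.957% in DCC-IP and 0.863%, 0.782% and 0.834% in Nrp1-IP, so that DCC-IP overlapped both other groups. Without MAP1B the same shares were 1.46%, 1.51% and 1.60% in DCC-IP, above the Input values of 0.720%, 0.739% and 0.774% and the Nrp1-IP values of 0.885%, 0.801% and 0.848%.

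The median level of the members stood higher in both pulldowns than in Input, also with MAP1B counted. The median level over the 176 mRNAs, with MAP1B in the library size, was 10.4, 15.5 and 19.9 CPM in the DCC-IP libraries, 14.2, 12.3 and 14.2 CPM in Nrp1-IP, and 5.86, 7.51 and 6.90 CPM in Input, and neither pulldown overlapped Input. By mean CPM, 130 of the 176 were higher in DCC-IP than in Input with MAP1B counted and 153 without it, with a median ratio of 1.83 and 3.48. In Nrp1-IP, 125 were higher than in Input on either scale, with a median ratio of 1.62. Between the pulldowns, 92 members were higher in Nrp1-IP than in DCC-IP with MAP1B counted and 33 without it. Since members could enter through the groups in which they were high, these counts describe the selected mRNAs and support no direction. All genes shifted with the scale as well. With library sizes alone, edgeR fold changes of DCC-IP over Input were positive for 73.9% of members tested and 58.5% of all genes. Without MAP1B they were positive for 86.9% and 74.2%. In Nrp1-IP over Input the shares were 71.4% and 62.8% with MAP1B. In Nrp1-IP over DCC-IP they were 52.3% and 47.3% with MAP1B, and 18.4% and 25.1% without it.

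Libraries of 1 group differed from each other by more in DCC-IP than in Nrp1-IP. The median coefficient of variation of a member over 3 libraries was 69.0% in DCC-IP, 52.3% in Input and 32.0% in Nrp1-IP, near the values over the 5079 genes at the same threshold (77.0%, 51.5% and 33.2%). For the 23 members over 100 CPM it was 26.1%, 26.2% and 15.8% in the same order, and for the 73 under 10 CPM it was 86.7%, 78.3% and 49.8%.

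**Figure D2:**
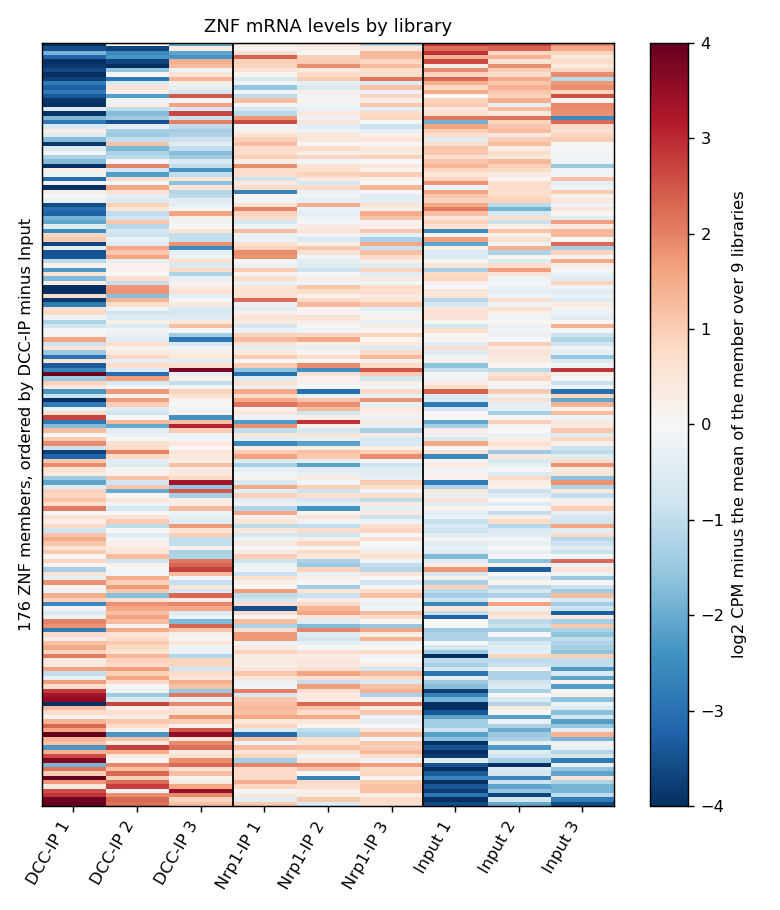
Level of the 176 ZNF mRNAs in the 9 libraries, as log2 CPM with TMM factors minus the member's mean over the libraries; each member is a line, ordered by DCC-IP minus Input, so that the contrast between the outer blocks is set by the ordering. The deep low cells gather in DCC-IP library 1 and Input library 1, the libraries with the fewest members at 10 counts (124 and 137), and the Nrp1-IP block is the most even.

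The first comparison, DCC-IP over Input, asks which mRNAs were enriched or depleted with the Netrin-1 receptor. Of the 176 ZNF mRNAs, all of which were tested, ZNF142 and ZNF195 were called higher and ZNF252P and ZNF286A lower by edgeR's quasi-likelihood test at a Benjamini-Hochberg adjusted p under 0.05. Over all 6223 genes tested, 1.46% were called higher, 3.52% lower and 4.98% in either direction, against 2.27% of the members in either direction. At an unadjusted p under 0.05 there were 25 members higher (14.2%) and 12 lower (6.82%), against 10.8% and 11.1% of all genes, and 21.0% in either direction against 22.0%. The log2 fold changes were positive for 114 of 176 members and had a median of 0.59, with the middle 50% of members between −0.36 and 1.50, against a median of 0.16 over all genes, and with MAP1B removed before the library sizes and TMM factors were computed the medians were 0.72 and 0.33. The 6223 genes passed another filter on counts than the members' threshold. In a fit of the 5079 genes at that threshold, 3.41% of members and 8.15% of all genes were called. The medians there were 0.62 and 0.25.

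ZNF142, a zinc finger gene known from a neurodevelopmental disorder, had counts of 0, 3 and 0 in Input, 479, 126 and 71 in DCC-IP and 48, 15 and 44 in Nrp1-IP. All 6 pulldown libraries lay above all Input libraries, as the selection required. On TMM-scaled depth the pooled DCC-IP counts were 168 times the Input counts, with a counting interval of 57.3 to 817 at 95% confidence from 676 against 3 counts. This interval leaves out the spread between libraries. The fitted log2 fold change was 7.35 (SE 1.69, adjusted p = 0.0450 by edgeR's test). Since the selection fixed the direction, these values are a description. Its annotated span overlaps those of BCS1L and PLCD4, and since the counting strand is not stated, reads of these genes could not be told apart with certainty.

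ZNF195 had counts of 4, 26 and 20 in Input, 518, 109 and 1509 in DCC-IP and 98, 123 and 290 in Nrp1-IP. Both pulldowns lay above Input in every library and overlapped each other, and the DCC-IP libraries differed among themselves over a wide range. The log2 fold change of DCC-IP over Input was 4.95 (SE 1.17, adjusted p = 0.0484).

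ZNF252P, a transcribed pseudogene of the family, went the other way. Its counts were 8289, 7111 and 9863 in Input, 4098, 2974 and 4211 in DCC-IP and 10663, 9912 and 10264 in Nrp1-IP. In CPM with MAP1B it stood at 349 ± 71.4 (SD, n = 3) in DCC-IP and 867 ± 219 in Input, a log2 fold change of −1.58 (SE 0.35, adjusted p = 0.0390). Without MAP1B in the library size the means were 660 ± 90.3 and 885 ± 221 CPM, and the fitted change was −1.29 with an adjusted p of 0.158.

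ZNF286A had counts of 21768, 19530 and 12551 in Input, 6284, 10080 and 9199 in DCC-IP and 35361, 32647 and 43192 in Nrp1-IP. In counts and in CPM with MAP1B, DCC-IP lay lowest and Nrp1-IP highest, with no overlap among the 3 groups. In CPM without MAP1B, DCC-IP libraries 2 and 3 lay above Input library 3. The log2 fold change of DCC-IP over Input was −1.51 (SE 0.34, adjusted p = 0.0422), and with MAP1B removed it was −1.26 with an adjusted p of 0.114. Part of its annotated span is shared with the readthrough gene ZNF286A-TBC1D26.

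Next in order of p were ZNF211 and ZNF568, neither of which passed. ZNF211 had counts of 964, 475 and 358 in DCC-IP and 67, 75 and 59 in Input, a log2 fold change of 2.78 (SE 0.71, adjusted p = 0.0599). ZNF568, whose mouse counterpart represses a placental transcript of Igf2, had counts of 660, 1123 and 811 in DCC-IP and 2693, 2063 and 1562 in Input, with a log2 fold change of −1.71 (SE 0.46, adjusted p = 0.0666). For both, the libraries of the groups did not overlap in counts. For ZNF568, DCC-IP library 2 lay above Input library 3 in CPM without MAP1B.

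None of the 4 calls in DCC-IP over Input held with MAP1B removed before library sizes and TMM factors were computed, or in every fit without 1 library. With library sizes alone and MAP1B removed, edgeR's test still called ZNF142 and ZNF195 (adjusted p = 0.0216 for both). There 13.7% of members and 11.7% of all genes were called. With MAP1B removed and TMM factors, 0 of 175 members tested were called by edgeR's quasi-likelihood test, against 1.22% of all genes, with 27 higher (15.4%) and 7 lower (4.0%) at an unadjusted p under 0.05, against 14.2% and 8.85% of all genes. The adjusted p was 0.0576 for ZNF142 and for ZNF195. Of the 6 fits that each left out 1 library, ZNF142 was called only without DCC-IP library 3 (adjusted p = 0.0310), ZNF286A only without Input library 3 (0.0190), and ZNF195 and ZNF252P in none. Over all genes, the fits without DCC-IP library 1, 2 and 3 called 0%, 0.0136% and 2.95%. Those without Input library 1, 2 and 3 called 0.401%, 1.33% and 3.5%, against 4.98% with every library. The loss of calls was thus shared by all genes and is not particular to these mRNAs.

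The 3 pairs of DCC-IP and Input libraries with the same replicate number all had positively correlated deviations (0.124 to 0.440), although Input library 1 correlated with DCC-IP library 2 as well (0.139). With that number as a block the same 4 mRNAs were called among 18. The 9 called higher were ZNF142, ZNF195, ZNF69, ZNF117, ZNF211, ZNF205, ZNF146, ZNF532 and ZNF662, with blocked log2 fold changes from 1.28 to 7.40. The 9 called lower were ZNF568, ZNF587B, ZNF252P, ZNF829, ZNF121, ZNF286A, ZNF562, ZNF280B and ZNF451, from −1.70 to −1.04. Among all genes 11.5% were called with the block, against 10.2% of the members. DESeq2, with no block, called 17 members higher and 7 lower where it called 16.6% of all genes.

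ZNF662 and ZNF117 show what the block adds on the higher side. ZNF662 had counts of 3341, 3777 and 3611 in DCC-IP against 841, 1560 and 1021 in Input, with a blocked log2 fold change of 1.28 (SE 0.29, adjusted p = 0.0322). ZNF117 had 547, 295 and 1747 against 91, 43 and 124, with a blocked change of 2.64 (SE 0.54, adjusted p = 0.0207). On the lower side, ZNF121 had 11986, 7632 and 6497 against 23843, 20388 and 11308, with a blocked change of −1.49 (SE 0.20, adjusted p = 0.00394). For ZNF662 and ZNF117 the groups did not overlap in counts. For ZNF121 DCC-IP library 1 lay above Input library 3 in counts, and below it in CPM with MAP1B. In CPM without MAP1B, DCC-IP library 1 lay above Input libraries 2 and 3, and DCC-IP library 2 above Input library 3.

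The CPM values of single libraries were also compared directly. With MAP1B in the library size, 41 of 176 members (23.3%) had all DCC-IP libraries above all Input libraries, against 20.4% of all genes tested, and 17 (9.66%) had them below, against 14.2%. Without MAP1B, 73 members (41.5%) lay above, against 29.2% of all genes, and 3 (1.70%) below, against 6.72%. The difference between members and all genes was not tested.

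**Figure D3:**
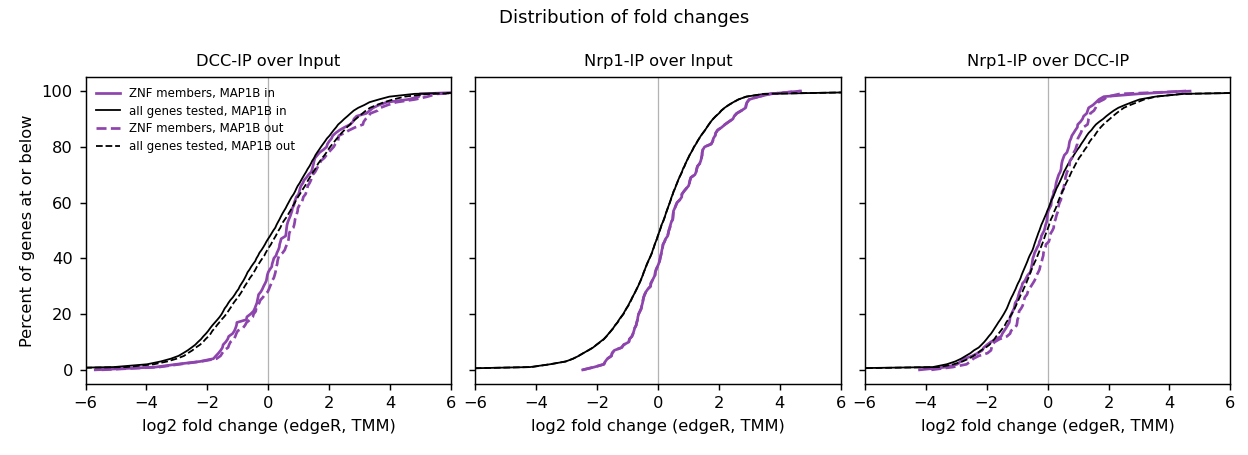
Cumulative distribution of the log2 fold change over the ZNF mRNAs tested and over all genes tested, for each of the 3 comparisons, with MAP1B kept and with MAP1B removed before scaling; the horizontal axis runs from −6 to 6. In DCC-IP over Input the curve of the ZNF mRNAs lies to the right of that of all genes at the median by 0.43 with MAP1B and 0.39 without it.

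The second comparison, Nrp1-IP over Input, was hardly touched by MAP1B, whose share was alike in both groups. It uses the same Input libraries as the comparison above. Of 175 members tested, ZNF317, ZNF146, ZNF548, ZNF419 and ZNF69 were called higher and ZNF165 lower, while ZNF492, with counts of 15, 9 and 44 in Input, 53, 12 and 52 in DCC-IP and 5, 2 and 10 in Nrp1-IP, did not pass the filter on low counts. Over all 6501 genes, 1.94% were called higher, 3.03% lower and 4.97% in either direction, so that members were called higher at 2.86% and lower at 0.571%. With MAP1B removed the same 6 mRNAs were called, against 4.98% of all genes. At an unadjusted p under 0.05 there were 41 members higher (23.4%) and 16 lower (9.14%), against 11.5% and 10.1% of all genes, or 21.6% in either direction. The median log2 fold change was 0.36, against 0.06 over all genes. In a fit of the 5079 genes at the members' threshold the medians were 0.31 and 0.09.

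ZNF317 had counts of 24, 26 and 28 in Input, 10, 316 and 278 in DCC-IP and 149, 373 and 351 in Nrp1-IP. In Nrp1-IP over Input its log2 fold change was 3.01 (SE 0.53, adjusted p = 0.0245), from 28.2 ± 11.4 CPM (SD, n = 3) against 2.67 ± 0.465. DCC-IP libraries 2 and 3 stood near the Nrp1-IP level and DCC-IP library 1 stood below Input, so the log2 fold change of DCC-IP over Input, 2.48 (SE 1.18), came with an adjusted p of 0.263.

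ZNF146, whose protein consists almost wholly of zinc fingers, had counts of 418, 944 and 379 in Input, 2523, 2775 and 1823 in DCC-IP and 3044, 2469 and 3429 in Nrp1-IP. Both pulldowns lay above Input in every library. The log2 fold change was 1.97 in Nrp1-IP over Input (SE 0.37, adjusted p = 0.0295) and 1.64 in DCC-IP over Input (SE 0.53, adjusted p = 0.108). Its span overlaps that of ZNF565, itself a member with 1 to 38 counts per library.

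ZNF548 and ZNF419, both on chromosome 19, had smaller counts, with every Nrp1-IP library above every Input library. ZNF548 had 929, 424 and 612 in Nrp1-IP against 99, 148 and 80 in Input, a log2 fold change of 2.19 (SE 0.46, adjusted p = 0.0410). ZNF419 had 300, 212 and 147 in Nrp1-IP against 28, 40 and 25 in Input, a log2 fold change of 2.44 (SE 0.53, adjusted p = 0.0432). In DCC-IP, ZNF419 had 273, 339 and 254 counts, all above Input, with a log2 fold change of 2.81 (SE 0.76, adjusted p = 0.0684).

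ZNF69 had counts of 63, 58 and 98 in Nrp1-IP, 36, 289 and 141 in DCC-IP and 1, 5 and 6 in Input. It was selected through the pulldown libraries alone, so that its higher level there is a description. Its log2 fold change over Input in Nrp1-IP was 3.70 (SE 0.84, adjusted p = 0.0492), and its span overlaps those of ZNF700 and ZNF763, further genes of the family.

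ZNF165, which carries a SCAN domain and is known as a testis gene that is turned on in tumours, was the only member called lower in Nrp1-IP over Input. It had counts of 156, 175 and 67 in Nrp1-IP and 1, 150 and 36 in DCC-IP, below the 658, 666 and 359 of Input in every library. Over Input, the Nrp1-IP log2 fold change was −2.45 (SE 0.55, adjusted p = 0.0464), and that of DCC-IP over Input was −3.61 (SE 1.30, adjusted p = 0.143). Next in order were ZNF568, with 1150, 943 and 849 counts in Nrp1-IP and a log2 fold change of −1.53 (SE 0.37, adjusted p = 0.0588), and ZNF66, with 98, 88 and 93 counts against 227, 192 and 278 and a log2 fold change of −1.78 (SE 0.44, adjusted p = 0.0618).

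These calls also lay near the threshold. Leaving out 1 library at a time, ZNF317 and ZNF165 were called only without Input library 3 (adjusted p = 0.0307 and 0.0207), ZNF146 only without Input library 2 (0.0394) or 3 (0.0495), and ZNF548, ZNF419 and ZNF69 in none of 6 fits. Over all genes, the fits without Nrp1-IP library 1, 2 and 3 called 0%, 0.0919% and 0.0978%. Those without Input library 1, 2 and 3 called 0.988%, 2.2% and 6.02%, against 4.97% with every library. In most of these fits calls were thus lost over all genes, and not for these mRNAs alone. With all 9 libraries in the fit, edgeR's quasi-likelihood test called 0 members, with 22 higher (12.5%) and 13 lower (7.39%) at an unadjusted p under 0.05, against 6.02% and 7.2% of all genes. DESeq2 called 21 members higher and 13 lower, where it called 14.9% of all genes.

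By CPM, 66 of 175 members (37.7%) had all Nrp1-IP libraries above all Input libraries, against 27% of all genes tested, and 12 (6.86%) had them below, against 8.68%. Without MAP1B the counts were 67 and 12 members, against 27.2% and 8.74% of all genes. Here too the difference between members and all genes was not tested.

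**Figure D4:**
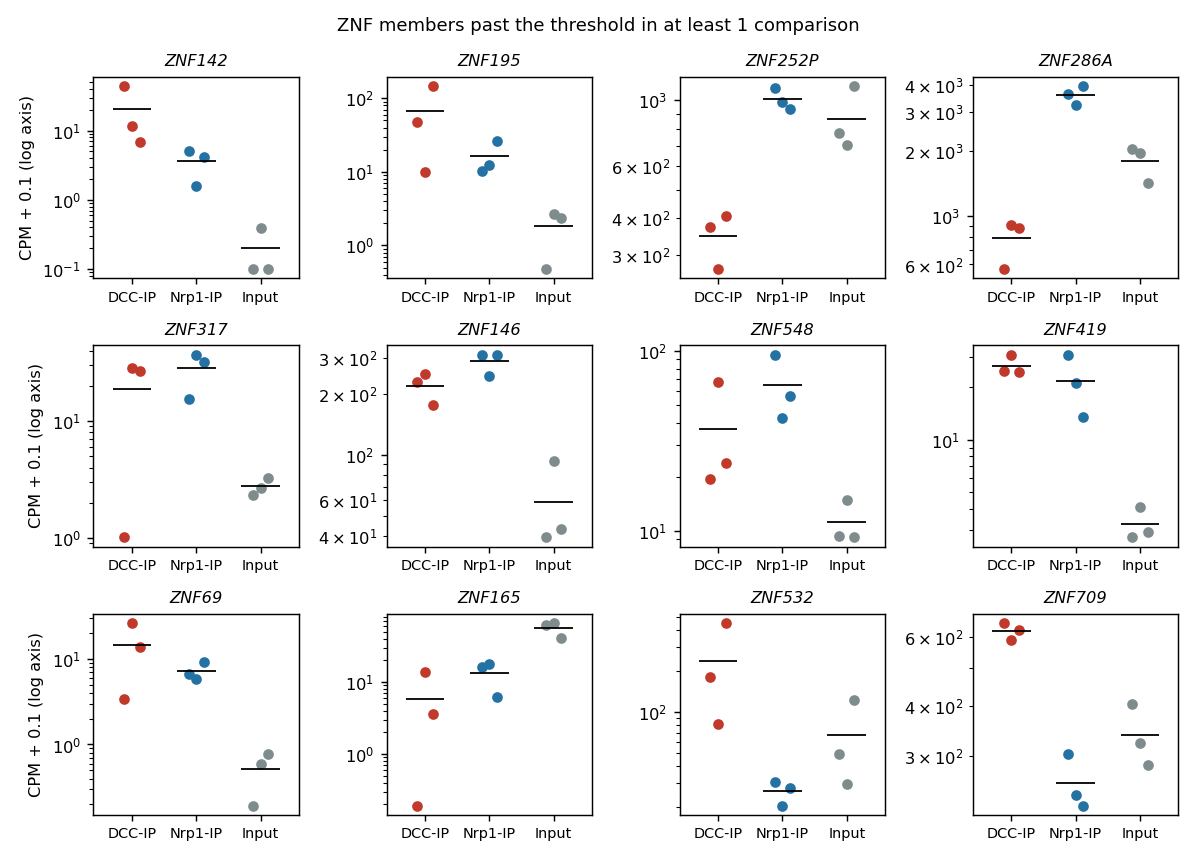
CPM with MAP1B in the library size, plus 0.1, on a log axis, of the 12 ZNF mRNAs called in at least 1 comparison, in each of the 9 libraries (points) with the group mean (line). ZNF286A shows 3 separate levels, with DCC-IP lowest at 790 CPM and Nrp1-IP highest at 3612 CPM on average, and ZNF532 stands at 238 CPM in DCC-IP against 26 CPM in Nrp1-IP.

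The third comparison sets the receptors against each other and shares its libraries with the other two. Of the 176 ZNF mRNAs, ZNF286A was called higher in Nrp1-IP and ZNF532 and ZNF709 lower, that is, higher in DCC-IP. Over all 6439 genes, 2.56% were called higher in Nrp1-IP, 1.09% lower and 3.65% in either direction. At an unadjusted p under 0.05 there were 8 members higher (4.55%) and 19 lower (10.8%), against 7.87% and 9.49% of all genes, and 15.3% in either direction against 17.4%. The median log2 fold change was −0.11, against −0.27 over all genes, and with MAP1B removed it was 0.16 against −0.02, so the sign of the median depended on the scale while its distance from all genes was 0.16 and 0.18.

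ZNF286A, whose counts are given above, had 3612 ± 353 CPM (SD, n = 3) in Nrp1-IP and 790 ± 190 CPM in DCC-IP. Between the receptors, as Nrp1-IP over DCC-IP, the log2 fold change was 1.98 (SE 0.29, adjusted p = 0.00645). With MAP1B removed the means were 3689 ± 347 and 1508 ± 386 CPM and the change was 2.26 (SE 0.25, adjusted p = 0.00178). It was called in all 10 other settings tried and in all 6 fits without 1 library, where the adjusted p ran from 0.00398 to 0.0478. No other named ZNF mRNA was called under each of these.

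ZNF532, a fusion partner of NUTM1 in NUT carcinoma and part of a chromatin complex with ZNF592 and ZNF687, had counts of 523, 295 and 1082 in Input, 1993, 897 and 4698 in DCC-IP and 293, 204 and 302 in Nrp1-IP. Every DCC-IP library was above every Nrp1-IP library, and Input lay between and overlapped both. Set as Nrp1-IP over DCC-IP, its log2 fold change was −3.28 (SE 0.57, adjusted p = 0.0142), and −3.08 with MAP1B removed (SE 0.60, adjusted p = 0.0251). It was called in all 10 other settings, and in 2 of 6 fits without 1 library, those without DCC-IP library 2 (0.0148) or 3 (0.0339); the adjusted p otherwise reached 0.133. Its partners ZNF592 and ZNF687 were below the count threshold of membership.

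ZNF709 had counts of 4335, 3243 and 2512 in Input, 7164, 6522 and 6464 in DCC-IP and 2946, 2408 and 2454 in Nrp1-IP. Every DCC-IP library lay above every library of the other groups, which overlapped each other. In Nrp1-IP over DCC-IP it changed by a log2 of −1.52 (SE 0.35, adjusted p = 0.0479). With MAP1B removed it was −1.22 (SE 0.30, adjusted p = 0.0602), and among the fits without 1 library it was called only without DCC-IP library 3 (0.0450). Over all genes, the fits without DCC-IP library 1, 2 and 3 called 3.3%, 2.68% and 4.87%. Those without Nrp1-IP library 1, 2 and 3 called 0.975%, 1.01% and 1.6%, against 3.65% with every library.

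A few mRNAs stood close to the threshold on the other side. ZNF132, which entered as a member without any DCC-IP library at 10 counts, had 76, 82 and 40 counts in Input, 2, 7 and 8 in DCC-IP and 204, 78 and 121 in Nrp1-IP, which gave 4.48 as the log2 fold change between the pulldowns (SE 1.07, adjusted p = 0.0542). ZNF829 had 3468, 2130 and 1674 counts in Input, 1222, 727 and 1498 in DCC-IP and 3647, 3750 and 3850 in Nrp1-IP, with a log2 fold change of 1.59 (SE 0.38, adjusted p = 0.0564). ZNF738 had 415, 526 and 420 counts in Nrp1-IP against 1632, 712 and 2236 in DCC-IP, with a log2 fold change of −1.83 (SE 0.50, adjusted p = 0.0854). With MAP1B removed, ZNF132, ZNF829, ZNF121 and ZNF252P joined ZNF286A as called higher, ZNF709 left the called set, and 4.3% of all genes were called. DESeq2 called 5 members higher and 9 lower, where it called 10.9% of all genes.

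By CPM with MAP1B, 17 members (9.66%) had all Nrp1-IP libraries above all DCC-IP libraries, against 15.5% of all genes, and 17 (9.66%) had them below, against 11.4%. Without MAP1B, 8 (4.55%) lay above, against 7.81% of all genes, and 51 (29.0%) below, against 24.3%. The members thus went from equal counts above and below to more below when MAP1B was left out, and all genes went from more above to more below.

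**Figure D5:**
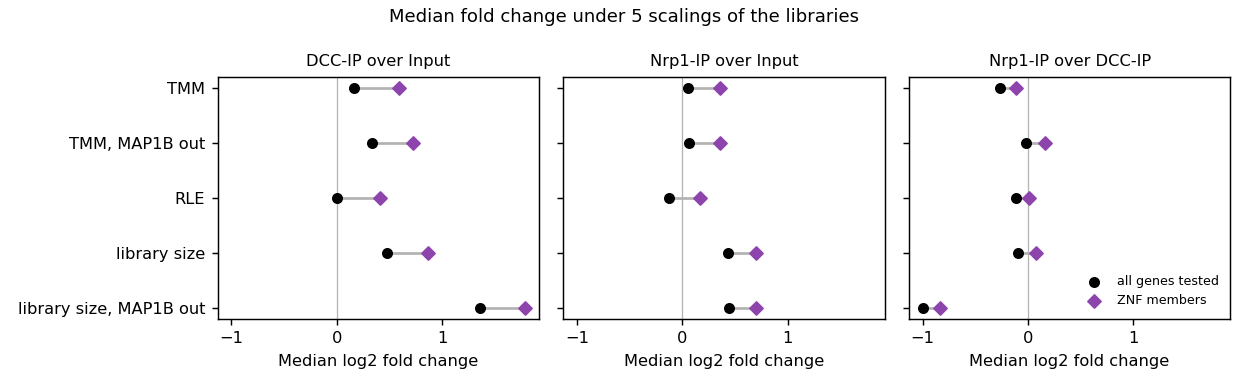
Median log2 fold change of the ZNF mRNAs tested and of all genes tested in the 3 comparisons under 5 ways of scaling the libraries. Both medians move together, in DCC-IP over Input up to 1.79 for the ZNF mRNAs and 1.36 for all genes with library sizes without MAP1B, and the gap between them changes little.

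The 5 most counted mRNAs did not move as 1 group. ZNF562 had counts of 29727, 29939 and 15530 in Input, 22429, 15867 and 6025 in DCC-IP and 36738, 36762 and 30557 in Nrp1-IP, and its log2 fold change of DCC-IP over Input was −1.13 (SE 0.52, adjusted p = 0.250). ZNF516 had counts of 15252, 13405 and 7255 in Input, 15419, 13852 and 6937 in DCC-IP and 13163, 11977 and 11166 in Nrp1-IP, with log2 fold changes over Input of −0.38 (SE 0.45) in DCC-IP and −0.41 (SE 0.33) in Nrp1-IP. ZNF284 had counts of 11143, 9879 and 6545 in Input, 11370, 12407 and 11353 in DCC-IP and 7664, 7540 and 8261 in Nrp1-IP, with changes of −0.07 (SE 0.33) and −0.68 (SE 0.28). For ZNF516 and ZNF284 the sign in DCC-IP over Input flipped under other scalings, and for ZNF562 it flipped with library sizes without MAP1B.

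Lists of ZNF genes with a known kind of function, chosen with earlier results known and not complete, held a single call, and ZNF142, described above, was on none of them. Of 9 ZNF genes known to bind RNA, ribosomes or microtubules, 3 were members and none was called. ZNF207, a spindle protein that binds microtubules, had 968, 1137 and 808 counts in Input, 826, 1248 and 840 in DCC-IP and 800, 669 and 846 in Nrp1-IP, so that DCC-IP and Input overlapped, and in Nrp1-IP over Input its log2 fold change was −0.77 (SE 0.31, adjusted p = 0.198). ZNF326, part of a complex that links RNA polymerase to splicing, and ZNF346, which binds double-stranded RNA, had log2 fold changes between −0.45 and 1.05 in the 3 comparisons with SEs up to 1.48. ZNF598, a sensor of collided ribosomes, and ZNF622, a ribosome assembly factor, were below the threshold, with 10 counts in 1 and 0 libraries. At an unadjusted p under 0.05, edgeR's test left ZNF207 in Nrp1-IP over Input alone. The list's medians were −0.18, −0.04 and −0.45 in DCC-IP over Input, Nrp1-IP over Input and Nrp1-IP over DCC-IP, against 0.16, 0.06 and −0.27 over all genes.

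Of 14 ZNF genes of promoters and chromatin complexes, 5 were members (ZNF263, ZNF281, ZNF462, ZNF516 and ZNF532), and ZNF532 was the call. ZNF462, a chromatin regulator of neural development, had 130, 69 and 51 counts in Input, 185, 106 and 107 in DCC-IP and 8, 12 and 47 in Nrp1-IP, which was lowest in every library. In Nrp1-IP over Input its log2 fold change was −2.47 (SE 0.79, adjusted p = 0.118) and over DCC-IP −2.87 (SE 1.0, adjusted p = 0.172). The list's medians were 0.27, −0.46 and −0.21 in the same order of comparisons.

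Of 8 KRAB zinc finger genes that repress retroelements or guard imprints, 3 were members and none was called. ZNF91, the repressor of SVA elements, had 42, 73 and 135 counts in Input, 433, 336 and 611 in DCC-IP and 136, 86 and 128 in Nrp1-IP, with DCC-IP above both other groups in every library. Its log2 fold change was 2.03 in DCC-IP over Input (SE 0.73, adjusted p = 0.140) and −2.09 in Nrp1-IP over DCC-IP (SE 0.58, adjusted p = 0.0897). ZNF445, which acts at imprinted regions, had 117, 86 and 560 counts in Input, 350, 139 and 1087 in DCC-IP and 121, 125 and 499 in Nrp1-IP, all overlapping, and ZNF587 had log2 fold changes between −0.23 and −0.11. At an unadjusted p under 0.05, edgeR's test left ZNF91 in DCC-IP over Input and in Nrp1-IP over DCC-IP. The list's medians were 0.56, −0.23 and −1.16.

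Of 10 ZNF genes known from neural development or intellectual disability, 4 were members and none was called; ZNF142, also known from such a disorder, was not on this list and was called higher in DCC-IP over Input. ZNF711, an X-linked intellectual disability gene whose product works with the histone demethylase PHF8, had 164, 94 and 48 counts in Input, 197, 1000 and 545 in DCC-IP and 417, 445 and 629 in Nrp1-IP. Both pulldowns were above Input in every library, with log2 fold changes of 2.06 in DCC-IP (SE 0.82, adjusted p = 0.181) and 1.80 in Nrp1-IP (SE 0.53, adjusted p = 0.0955). ZNF536, a repressor of neuronal differentiation, had 305, 891 and 252 counts in Input, 273, 1097 and 486 in DCC-IP and 870, 689 and 959 in Nrp1-IP, which overlapped. At an unadjusted p under 0.05, edgeR's test left ZNF711 in both pulldowns over Input. The list's medians were 0.73, −0.26 and −0.68.

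The proteins through which KRAB zinc finger proteins act were a separate list of 20 genes, of which 13 met the threshold of membership. TRIM28 itself reached 10 counts in 2 libraries and SETDB1 in 6. In DCC-IP over Input, 12 were tested, beside 4.98% called over all genes, and of these MPHOSPH8, a chromodomain protein of the HUSH silencing complex, was called higher, and CBX5 and CBX1, heterochromatin proteins, lower. MPHOSPH8 had 344, 314 and 343 counts in Input, 2982, 2061 and 3836 in DCC-IP and 917, 1169 and 1591 in Nrp1-IP, with no overlap among the groups and a log2 fold change of DCC-IP over Input of 2.72 (SE 0.46, adjusted p = 0.0154). CBX5 had 208397, 233709 and 117887 counts in Input, 29179, 45492 and 26138 in DCC-IP and 121050, 86886 and 97274 in Nrp1-IP, with a log2 fold change of −2.88 (SE 0.36, adjusted p = 0.00639). CBX1 had 0 counts in all DCC-IP libraries against 83, 132 and 25 in Input (adjusted p = 0.0382). It met the threshold only through the Input and Nrp1-IP libraries, in which it was high, so that its lower level in DCC-IP is a description.

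In Nrp1-IP over Input, 14 of that list were tested and 0 were called by edgeR's quasi-likelihood test, with 4 higher and 4 lower at an unadjusted p under 0.05, a p that 21.6% of all genes reached, and CBX5 at the threshold (log2 fold change −1.29, SE 0.30, adjusted p = 0.050). In Nrp1-IP over DCC-IP, 15 were tested and 0 called, with 2 higher and 2 lower at an unadjusted p under 0.05, which 17.4% of all genes reached. The list's medians were −0.20, −0.21 and −0.41 in the 3 comparisons, below those of the ZNF mRNAs in each.

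Other zinc finger genes, with symbols of ZBTB, ZSCAN, ZKSCAN or ZFP and a number, gave a family to set beside the ZNF mRNAs. Of 88 such symbols 32 met the threshold, and their median log2 fold changes were 0.47, 0.05 and −0.35, against 0.59, 0.36 and −0.11 for the ZNF mRNAs. ZFP37 was the only call, higher in Nrp1-IP over Input, with 326, 292 and 287 counts in Nrp1-IP, 188, 285 and 197 in DCC-IP and 18, 21 and 28 in Input (log2 fold change 3.31, SE 0.49, adjusted p = 0.0158). All 6 of its pulldown libraries were above Input.

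The members shared a place in the genome that the rule did not use. Matched by symbol to RefSeq genes of assembly GRCh38.p14, 95 of the 176 members (54.0%) lie on chromosome 19, as do 158 of the 348 ZNF symbols below the threshold (45.4%) and 314 of the 4478 matched genes at the same threshold (7.01%). RefSeq lists 172 members as protein coding and 4 as transcribed pseudogenes. The median log2 fold change of the members on chromosome 19 and of the other members was 0.71 and 0.40 in DCC-IP over Input, 0.38 and 0.36 in Nrp1-IP over Input and −0.16 and −0.03 in Nrp1-IP over DCC-IP. All 4 calls in DCC-IP over Input, where 4.98% of all genes were called, were off chromosome 19. All 5 higher calls in Nrp1-IP over Input, where 1.94% of all genes were called higher, were on it. With the replicate block, the calls in DCC-IP over Input included ZNF121, ZNF146, ZNF568, ZNF587B and ZNF829 on chromosome 19. Called shares of all genes by chromosome were not computed, and the split was not tested.

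Adjacent genes were common among the members, which bears on how far they count as separate measurements. There were 25 runs of neighbouring members holding 61 of them, the longest being ZNF586, ZNF552, ZNF587B, ZNF587 and ZNF814. The spans of 98 members overlap that of some other annotated gene, among them 12 of the 22 members named for their p or their counts. Many genes of a cluster arose by duplication, and how alike the members are in sequence was not examined. The libraries held 2.83% to 3.83% of HTSeq's reads as aligned to more than 1 place and 0.195% to 0.517% as ambiguous between genes, neither of which entered the counts. These percentages are over whole libraries and not over the members.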

How the data were processed

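The authors precipitated RNA with DCC or Nrp1 from SH-SY5Y lysate, amplified the cDNA, used HISAT2 2.1.0 as aligner and HTSeq 0.11.0 as counter; the submitters' processing notes name build hg19, and the annotation and strand setting are not given in the sources used here. The deposited values are raw counts per gene symbol, with no normalization. Of each library's reads, HTSeq put 48.7% to 55.8% on no feature, 2.83% to 3.83% in several places and 0.195% to 0.517% as ambiguous, and these lines were left out.

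Samples were grouped by pulldown. Each comparison used its 6 libraries in edgeR 4.0.16 (R 4.3.3): filterByExpr with a minimum count of 10, TMM factors, glmQLFit and glmQLFTest over all genes, with Benjamini-Hochberg adjustment and calls at an adjusted p under 0.05. Levels are CPM, with or without MAP1B in the library size. Intervals and the floor of 3 counts cover counting error only, and amplified reads are not independent molecules. The code was tested on simulated counts. The members and the gene lists were chosen with earlier results of these data known, so their counts are descriptions. Named mRNAs are those called per comparison, the 3 with the smallest p in a direction with fewer than 3 calls, the 5 most counted, the list members that met the rule and those at its edge. Where several qualified alike, a few are given in full.

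Replicate numbers come from the sample titles. Deviations from the group means correlated by 0.124 to 0.440 between libraries of the same number in DCC-IP and Input, and by −0.318 to 0.139 between those of different numbers. Every same-number pair passed 0.1, so these were taken as paired and the fit with a replicate block is given beside the other; the correlation was −0.00393 to 0.384 in Nrp1-IP and Input and 0.0841 to 0.361 in Nrp1-IP and DCC-IP, where not every pair passed 0.1. Alternatives were other scalings, DESeq2 1.42.0, other filters, all 9 libraries in the fit and leaving out each library. Removing MAP1B while keeping the genes tested, and the shares without the 5 most counted members, were added after seeing the data. Gene names, biotypes, chromosomes and neighbours came from RefSeq for GRCh38.p14, matched by symbol for 176 of 176 members. A split of the members by KRAB domain was not run. Figures were drawn with matplotlib 3.10.9 in Python 3.11.15.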

Additional observations from a re-analysis of the deposited data

Results flagged for a closer look

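The pulldowns differed in 3 ZNF mRNAs by a test of the difference itself, the edgeR quasi-likelihood fit of Nrp1-IP over DCC-IP, which called 1.70% of the members and 3.65% of all genes. The log2 fold change was 1.98 for ZNF286A, −3.28 for ZNF532 and −1.52 for ZNF709, with adjusted p of 0.00645, 0.0142 and 0.0479. For all 3 the mean CPM of the pulldowns lay on opposite sides of the Input mean. It was 790 CPM in DCC-IP, 1801 in Input and 3612 in Nrp1-IP for ZNF286A, and 238, 66.9 and 26 CPM for ZNF532. ZNF709 averaged 621 CPM in DCC-IP, 338 in Input and 256 in Nrp1-IP, and without MAP1B in the fit its adjusted p was 0.0602. The receptor, its antibody and the antibody's host species cannot be told apart in this design.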

How the results depend on the processing

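In DCC-IP over Input, 2 members were called higher and 2 lower, and the counts moved to 0 and 0 with MAP1B removed (0 and 0 also with the same genes kept), 2 and 0 with library sizes only, 24 and 0 with library sizes without MAP1B, 1 and 0 with RLE factors, 17 and 7 with DESeq2, 10 and 1 with no filter, 4 and 2 with 10 counts in 6 of 9 libraries and 11 and 9 with all 9 libraries in the fit. In Nrp1-IP over Input, from 5 and 1, they were 14 and 1 with library sizes (with or without MAP1B), 2 and 4 with RLE, 21 and 13 with DESeq2, 12 and 8 with no filter, 6 and 4 with 10 counts in 6 of 9, and 0 and 0 with all 9. Of members, 8.57% were called with library sizes, against 7.98% of all genes (8.03% without MAP1B). The shares were 3.43% against 5.38% with RLE, 19.4% against 14.9% with DESeq2 and 11.4% against 5.36% with no filter. They were 5.68% against 9.18% with 10 counts in 6 of 9 and 0% against 1.64% with all 9. In Nrp1-IP over DCC-IP, from 1 and 2, they were 5 and 1 with MAP1B removed by either route, 4 and 2 with library sizes, 1 and 9 with library sizes without MAP1B, 2 and 1 with RLE, 5 and 9 with DESeq2, 5 and 4 with no filter, 4 and 2 with 10 counts in 6 of 9, and 3 and 1 with all 9. Of members, 3.45% were called with MAP1B removed, against 4.3% of all genes (3.41% against 4.13% with the same genes kept). The shares were 3.41% against 3.96% with library sizes and 5.75% against 6.97% with library sizes without MAP1B. They were 1.7% against 3.67% with RLE, 7.95% against 10.9% with DESeq2 and 5.11% against 3.07% with no filter. With 10 counts in 6 of 9 they were 3.41% against 5.41%, and with all 9 2.27% against 3.64%. Without 1 library, the higher and lower counts ranged over 0 to 3 and 0 to 2, 0 to 3 and 0 to 8, and 1 to 5 and 0 to 2. These fits called 0% to 3.5%, 0% to 6.02% and 0.975% to 4.87% of all genes in the same order. In DCC-IP over Input the called shares were 13.7% of members against 11.7% of all genes with library sizes without MAP1B, 1.14% against 5.00% with library sizes, 0.568% against 3.42% with RLE, 13.6% against 16.6% with DESeq2, 6.25% against 2.78% with no filter, 3.41% against 8.15% with 10 counts in 6 of 9 and 11.4% against 10.2% with all 9. The cause of these moves was not tested.

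With a replicate block, 9 and 9 members were called for DCC-IP and 11 and 4 for Nrp1-IP over Input, and 4 and 3 in Nrp1-IP over DCC-IP. These were 10.2% of members against 11.5% of all genes, 8.57% against 8.55% and 3.98% against 5.73%. In the comparisons with Nrp1-IP not every same-number pair passed the correlation of 0.1 set for pairing. Between Nrp1-IP and DCC-IP the same-number correlations (0.0841 to 0.361) nevertheless lay above all those of different numbers (−0.197 to 0.0668). The medians with the block were 0.27 for DCC-IP over Input and 0.14 between the pulldowns, the latter 0.013 above all genes.

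The median log2 fold change of members in DCC-IP over Input was 0.87 with library sizes, 1.79 with library sizes without MAP1B, 0.41 with RLE and with DESeq2, 0.40 with all 9 and 0.75 with MAP1B removed and the same genes kept (0.42 to 0.68 without 1 library), and relative to all genes it was 0.92 with no filter and 0.34 to 0.71 without 1 library. In Nrp1-IP over Input it was 0.70 with library sizes with or without MAP1B, 0.17 with RLE and 0.16 with DESeq2, and relative to all genes 0.51 with no filter and 0.18 to 0.45 without 1 library. In Nrp1-IP over DCC-IP it was 0.16 with MAP1B removed, 0.15 with the same genes kept, 0.078 and −0.83 with library sizes with and without MAP1B, 0.02 with RLE and DESeq2, 0.067 with no filter, 0.030 with all 9 and −0.17 to 0.25 without 1 library, and relative to all genes −0.10 with no filter and −0.066 to 0.18 without 1 library. Mean shares were 2.52% in DCC-IP without MAP1B, and without the 5 most counted members 0.805%, 0.827% and 0.729% in DCC-IP, Nrp1-IP and Input, or 1.52%, 0.844% and 0.744% without MAP1B as well.

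Among named members, 29 of the refitted values changed sign, 349 kept sign and side of the threshold, 96 lost a call and 54 gained it. In DCC-IP over Input, ZNF562 became 0.061 with library sizes without MAP1B, ZNF516 0.0059, 0.83 and 0.015 with MAP1B removed, library sizes without MAP1B and the same genes kept, and ZNF284 0.23, 0.23, 1.14, 0.18 and 0.24 with MAP1B removed, library sizes with and without it, no filter and the same genes kept. In Nrp1-IP over Input, ZNF562 became −0.13 with RLE and DESeq2, −0.027 with no filter and −0.039 with all 9, and ZNF121 0.32 with library sizes. In Nrp1-IP over DCC-IP, ZNF516 became 0.13, 0.10 and 0.12 with MAP1B removed, library sizes and the same genes kept. Without 1 library the ranges were −0.69 to 0.39 (ZNF516) and −0.30 to 0.43 (ZNF284) for DCC-IP, −0.36 to 0.22 (ZNF562) and −0.50 to 0.061 (ZNF121) for Nrp1-IP over Input, and −0.24 to 0.44 (ZNF516) in Nrp1-IP over DCC-IP. In DCC-IP the median coefficient of variation was 69.0% over all members and 86.7% over those under 10 CPM. With 3 libraries a group and this spread, differences that were not called, large ones included, may have been missed.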
